A study of Mus musculus with 4 samples.

Results

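Heparanase, 4 syndecans, 4 glypicans and perlecan were examined in B16F10 mouse melanoma cells grown in 4 settings. The members were the rows of the read count table whose gene symbol was Hpse, Sdc1, Sdc2, Sdc3, Sdc4, Gpc1, Gpc3, Gpc4, Gpc6 or Hspg2, and all 10 were found among 24527 genes. Hpse was chosen by its measured ratio of spheroid to 2D monoculture, among the highest of the table, so that ratio is given as a description only.

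The libraries came from B16F10 cells of genotype WT in spheroids with NIH/3T3 fibroblasts, from 2D co-culture with these fibroblasts, from 2D monoculture, and from B16F10 tumors. Spheroids formed in hanging drops, and tumors grew under the skin of both flanks of 1-year-old female C57BL/6 mice. The study's methods and design text describe melanoma cells sorted from spheroids, co-culture and tumors. The methods name the green fluorescent protein of the Linterna B16F10 line for these, and list a monolayer among the cultures that were sorted. The label of the tumor library, in contrast, names snap-frozen material. Each setting has 1 library, and whether a library pools several cultures or animals is not given, so no difference between settings has a replicate check, no p-value is given, and all intervals (95%) cover counting error only.

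Heparan sulfate is a sulfated sugar chain that cells attach to a few core proteins. Syndecans carry it as membrane-spanning proteins, glypicans on a lipid anchor in the outer membrane, and perlecan in the basement membrane, and the chains hold growth factors such as FGF2 and VEGF near their receptors. Heparanase is the endoglycosidase that cuts these chains, and in melanoma it is known for the release of bound factors and for invasion through basement membrane.

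Levels are given in CPM, the reads of a gene scaled to a common library size with TMM factors, which align the bulk of genes between libraries. The libraries held 118896900 to 150028663 reads, and 3 reads, the limit that a count of 0 allows, came to 0.0185 to 0.0262 CPM. All 8 genes of the melanocyte list had reads in every library, with a summed level of 11420 CPM in spheroid culture, 15310 CPM in 2D co-culture, 16910 CPM in 2D monoculture and 20120 CPM in tumor. The genes of this list differed in direction, so the sum does not rank the libraries by melanocyte RNA. Tyrp1 had 8948 CPM in tumor and 2455 CPM in spheroid culture, whereas Sox10 had 237 and 902 CPM and Pmel 2208 and 3478 CPM. The tumor library also held RNA of other cell types. Its summed levels were 2187 CPM for 12 myeloid genes (at most 30.5 CPM in a culture), 349.9 CPM for 10 endothelial genes (at most 78.8 CPM), 4599 CPM for 5 skeletal muscle genes (at most 12.4 CPM) and 838 CPM for 3 adipocyte genes (at most 1.56 CPM). The 9 fibroblast genes summed to 2728 CPM in tumor, 679 CPM in 2D co-culture, 36.5 CPM in spheroid culture and 17.6 CPM in 2D monoculture. Single genes gave most of some culture sums. Egfl7 gave 74.0 CPM of the endothelial 78.8 CPM, which was in spheroid culture. Of the fibroblast sums, Pdgfrb gave 23.5 CPM in spheroid culture and 11.0 CPM in 2D monoculture, and Col1a2 gave 514 CPM in 2D co-culture. Among these lists, Cd14 and Myh4 had no read in 2D monoculture, and each other gene had reads in each library. Between a tumor and a culture, fewer cells of a type and less RNA per cell cannot be told apart.

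Heparanase (Hpse, GRCm38 chr5:100679484-100719716, minus strand) had the widest range of level among the culture libraries of any member with at least 1 CPM in each of them. It had 155 CPM in spheroid culture (21108 reads), 76.0 CPM in tumor (12346 reads), 20.9 CPM in 2D co-culture (2390 reads) and 8.97 CPM in 2D monoculture (1278 reads). Neighbours in this order did not overlap in their counting intervals, the closest by ratio being the spheroid, at 153 to 157 CPM, and the tumor, at 74.7 to 77.4 CPM. The spheroid level was 17.3-fold that of the 2D monoculture, a log2 ratio of 4.11 (interval 4.03 to 4.19). It was 7.43-fold that of the 2D co-culture, where the same fibroblasts were present in 2D, and 2.04-fold that of the tumor. The ratio to the tumor lay within 2-fold with total counts, with upper quartiles, with 10 CPM added and with a correction that removes the median log2 ratio of genes of like GC content and length, called the composition correction from here on.

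Hpse had rank 3 in the ratio of spheroid to 2D monoculture over 9588 genes that averaged 10 CPM or more, both levels raised by 1 CPM. Rasd2, a Ras-like GTPase, stood just above it with a log2 ratio of 4.23, and Cort, which encodes the neuropeptide cortistatin, just below with 3.93, against 3.97 for Hpse. In the tumor, Hpse was 8.48-fold higher than in 2D monoculture (log2 ratio 3.08, interval 3.00 to 3.17). Myeloid and endothelial genes were far higher there too, and their part in the tumor level was not tested. In spheroid culture the 12 myeloid genes summed to 28.4 CPM, of which Cd68 gave 22.5 CPM, and their part in its Hpse level was not tested either. The inactive relative Hpse2, which binds heparan sulfate and inhibits heparanase, had 1 read in 2D monoculture and none in the other libraries. Ctsl encodes the lysosomal protease cathepsin L, which cleaves the heparanase precursor into its active form. It had 184 CPM in spheroid culture, 194 CPM in 2D co-culture, 199 CPM in 2D monoculture and 383 CPM in tumor, so the cultures lay close together in this gene.

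Promoter sequences, 250 bases before the transcript start, are shown for the members that passed 2-fold between spheroid and 2D monoculture, Hpse (chr5:100719717-100719966, minus strand), Sdc3 (chr4:130792287-130792536, plus strand) and Sdc4 (chr2:164443189-164443438, minus strand), so that their composition can be compared. They are from RefSeq on GRCm38.p6, whose table held 7 of the 10 members. The window of Sdc4 lies within the gene as GENCODE M21 annotates it, which starts upstream of the RefSeq start. Capitals mark the GC box letters GGGCGG and the core of the hypoxia response element, ACGTG, on either strand.
Hpse: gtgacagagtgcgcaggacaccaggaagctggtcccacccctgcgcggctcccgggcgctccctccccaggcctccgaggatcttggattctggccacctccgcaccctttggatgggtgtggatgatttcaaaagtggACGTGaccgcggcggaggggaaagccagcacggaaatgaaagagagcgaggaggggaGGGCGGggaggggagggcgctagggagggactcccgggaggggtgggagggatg
Sdc3: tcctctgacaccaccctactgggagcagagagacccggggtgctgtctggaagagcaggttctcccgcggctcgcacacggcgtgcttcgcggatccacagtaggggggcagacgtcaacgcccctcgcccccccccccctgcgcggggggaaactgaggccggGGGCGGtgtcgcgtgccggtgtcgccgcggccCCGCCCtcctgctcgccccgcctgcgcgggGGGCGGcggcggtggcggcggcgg
Sdc4: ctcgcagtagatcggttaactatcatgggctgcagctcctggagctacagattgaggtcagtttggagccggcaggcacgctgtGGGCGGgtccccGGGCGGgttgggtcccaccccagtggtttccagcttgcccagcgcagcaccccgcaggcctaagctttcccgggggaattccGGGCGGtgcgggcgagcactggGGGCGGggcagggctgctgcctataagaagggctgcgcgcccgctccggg

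The GC box letters occurred in all 7 promoters found, 1 time in that of Hpse, 3 times in that of Sdc3 and 4 times in that of Sdc4, against 32.7% of 32851 promoters of the same length. The letters ACGTG occurred in the promoter of Hpse alone among the 7, against 16.6% of all promoters. They form part of the E-box CACGTG, which occurred in none of the 7 and in 6.0% of all promoters. The EGR1 letters GCGTGGGCG and the cAMP response letters TGACGTCA occurred in none of the 7, against 0.5% and 1.5% of all promoters. The 3 sequences were rich in G and C, with 66.8% for Hpse, 68.0% for Sdc4 and 76.4% for Sdc3, against a median of 52.4%. A match of letters is a description of the window and not a binding site.

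**Figure D1:**
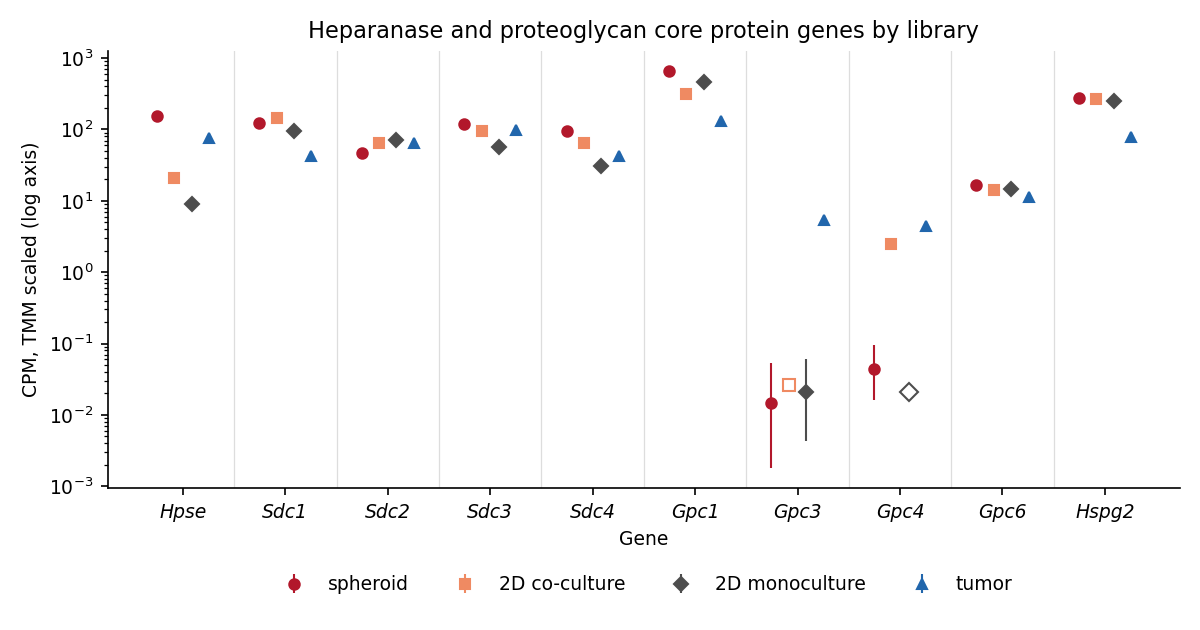
Levels of the 10 members in the 4 libraries, in TMM-scaled CPM on a log axis, with 1 point per library and bars for the 95% counting interval, which is mostly smaller than the symbol. Open symbols stand at the 3-read limit of libraries with no read. Hpse spans 8.97 to 155 CPM, while Gpc3 and Gpc4 are near or at 0 in spheroid culture and the 2D monoculture.

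Of the syndecans, Sdc4 differed most between the spheroid and the 2D monoculture. Sdc4 (chr2:164424247-164443887), which encodes the syndecan of focal adhesions, had 93.9 CPM in spheroid culture (12793 reads), 63.8 CPM in 2D co-culture (7304 reads), 42.0 CPM in tumor (6813 reads) and 30.7 CPM in 2D monoculture (4378 reads). The spheroid was thus 3.06-fold above the 2D monoculture (log2 ratio 1.61, interval 1.56 to 1.66) and 2.24-fold above the tumor (log2 ratio 1.16, interval 1.12 to 1.21). The 2D co-culture was 2.08-fold above the 2D monoculture, and within 2-fold of it with total counts, with 10 CPM added or with the composition correction (log2 ratio 0.93). The order of the cultures was that of Hpse, with the tumor between the 2D cultures. Sdc3 had this order of cultures too, as did Hspg2, whose spheroid and 2D co-culture intervals overlapped.

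Sdc3 (chr4:130792537-130826319), known best from neurons and muscle precursors, had 120.2 CPM in spheroid culture (16373 reads), 98.0 CPM in tumor (15909 reads), 95.2 CPM in 2D co-culture (10903 reads) and 55.9 CPM in 2D monoculture (7960 reads). The tumor and the 2D co-culture were close, with intervals of 96.5 to 99.5 and 93.5 to 97.0 CPM that overlapped. The log2 ratio between spheroid and 2D monoculture was 1.11 (interval 1.07 to 1.14), and 0.35 with the composition correction. Exons of Sdc3 overlap those of the antisense genes Gm12970 and Gm26716, and since the strand setting of the counting is not given, reads of both strands cannot be told apart.

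Sdc1 (chr12:8771323-8793715), the syndecan of epithelia and plasma cells, had 143.8 CPM in 2D co-culture (16463 reads), 121 CPM in spheroid culture (16503 reads), 95.4 CPM in 2D monoculture (13591 reads) and 41.8 CPM in tumor (6792 reads). All cultures stood above the tumor, by 2.28-fold for the 2D monoculture and 2.90-fold for the spheroid, both within 2-fold with the composition correction. Markers of cells rich in syndecan-1 were scarce. The 6 plasma and B cell genes summed to 21.8 CPM in tumor, of which Jchain gave 17.3 CPM, and to at most 2.01 CPM in a culture, with Ms4a1 at 0 in each culture. The 6 keratinocyte genes summed to at most 2.42 CPM in any library, with Krt5 and Epcam at 0 in each culture.

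Sdc2 (chr15:32920723-33034935), found on mesenchymal cells, was the syndecan with the smallest range. It had 70.2 CPM in 2D monoculture (10008 reads), 64.7 CPM in tumor (10512 reads), 63.9 CPM in 2D co-culture (7315 reads) and 47.1 CPM in spheroid culture (6417 reads). The tumor and 2D co-culture intervals overlapped, at 63.5 to 66.0 and 62.4 to 65.4 CPM. Sdc2 was lowest in spheroid culture, with a log2 ratio to the 2D monoculture of -0.58 (interval -0.62 to -0.53), and it did not pass 2-fold in any comparison. This direction turned with the composition correction, to 0.17 against the 2D monoculture and 0.65 against the tumor, and the log2 ratio to the 2D co-culture was then -0.04.

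The share of each syndecan in the sum of the 4, taken per kb of exon so that genes of different length can be compared, does not depend on the scaling between libraries. It was not corrected for composition, and GC content ran from 41.6% for Sdc2 to 58.7% for Sdc3. With the composition correction, Sdc2 went from -0.57 to 0.17 between spheroid and 2D monoculture (log2 ratio, 1 CPM added). Sdc3 went from 0.80 to 2.08 between tumor and 2D monoculture. The shares and the leading syndecan can thus move with composition. Sdc4 had 36.1% of the sum of the 4 in spheroid culture, 25.9% in 2D co-culture, 18.2% in 2D monoculture and 26.5% in the tumor. Sdc1 led in 2D monoculture with 37.7% and in 2D co-culture with 39.0%, and had 31.2% in spheroid culture and 17.7% in the tumor. Sdc2 had 30.0% in 2D monoculture, 18.7% in 2D co-culture, 13.1% in spheroid culture and 29.5% in the tumor, where it led. The leading syndecan by merged exons thus was Sdc1 in both 2D cultures, Sdc4 in spheroid culture and Sdc2 in the tumor. With the length of the longest transcript, Sdc1 and Sdc4 were level in spheroid culture, at 33.6% and 33.5%, and Sdc3 led in the tumor with 28.8%, while Sdc1 still led in both 2D cultures. The summed syndecan level was 102 CPM per kb in spheroid culture, 96.8 in 2D co-culture, 66.4 in 2D monoculture and 62.2 in the tumor.

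**Figure D2:**
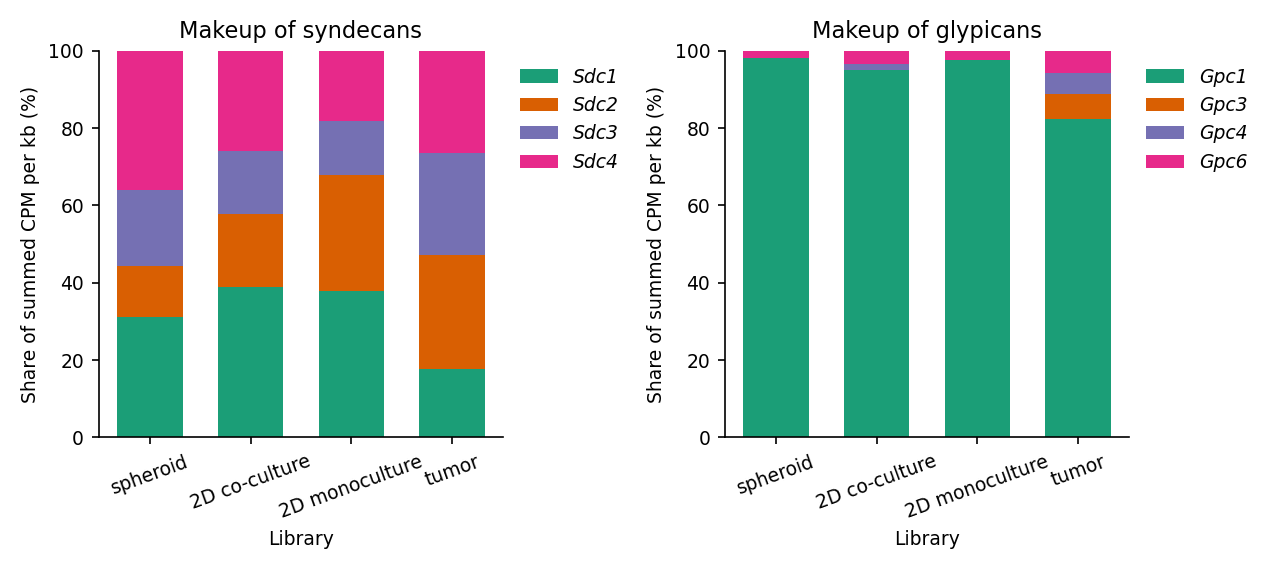
Share of each gene in the summed CPM per kb of exon of 4 syndecans (left) and 4 glypicans (right), in percent, with 1 stacked bar per library and no error bars, since each library stands alone. Sdc4 has 36.1% in spheroid culture and 18.2% in 2D monoculture, and Gpc1 has 82.4% of the glypicans in the tumor and at least 95.02% in each culture.

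Gpc1 was the member of highest level per kb in all 4 libraries. Gpc1 (chr1:92831645-92860779), the glypican that binds FGF2 and is abundant in many tumors, had 663 CPM in spheroid culture (90277 reads), 465 CPM in 2D monoculture (66241 reads), 309.0 CPM in 2D co-culture (35382 reads) and 132 CPM in tumor (21408 reads). Per kb of exon it had 128.5 CPM in spheroid culture, against 44.1 CPM for Hpse, the next member there. The 2D co-culture stood at 234% of the tumor level, the 2D monoculture at 353% and the spheroid at 503%. Its order in the cultures differed from that of Hpse, Sdc3 and Sdc4, with the 2D co-culture lowest, and the spheroid was 2.15-fold above the 2D co-culture (log2 ratio 1.10, interval 1.08 to 1.12). With the composition correction this log2 ratio was 0.51, within 2-fold, as were those of spheroid to tumor and of tumor to 2D monoculture. Exons of Gpc1 overlap those of Ankmy1 on the opposite strand.

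Gpc3 and Gpc4, neighbours on the X chromosome (chrX:52272426-52613950 and chrX:52053021-52165252), were close to absent from the melanoma monoculture. Gpc3, the glypican known from fetal tissue and liver cancer, had 5.43 CPM in tumor (882 reads), 3 reads in 2D monoculture, 2 reads in spheroid culture and none in 2D co-culture, all far below 1 CPM. The log2 ratio between tumor and 2D monoculture was 8.01, with a wide interval of 6.46 to 10.29 that comes from the 3 reads.
Gpc4 had 4.47 CPM in tumor (725 reads), 2.52 CPM in 2D co-culture (288 reads), 0.0441 CPM in spheroid culture (6 reads) and no read in 2D monoculture. Against the 3-read limit of that library, it was at least 119.5-fold higher in 2D co-culture and at least 212-fold higher in the tumor. Between the cultures that held fibroblasts, it was lower in spheroid culture by 57.1-fold (log2 ratio -5.84, interval -7.29 to -4.70). Fibroblast genes were at 679 CPM in 2D co-culture and 36.5 CPM in spheroid culture, in the same order as Gpc4, and their part in the result was not tested. As a share of the tumor level, the skeletal muscle genes had a median of 0.195% and Gpc4 had 56.3% in 2D co-culture, and 0.130% and 0.987% in spheroid culture.

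Gpc6 (chr14:116925315-117976544), a glypican of mesenchymal cells that spans a long gene, had less than a 2-fold range. It had 16.7 CPM in spheroid culture (2273 reads), 14.7 CPM in 2D monoculture (2091 reads), 14.1 CPM in 2D co-culture (1612 reads) and 11.2 CPM in tumor (1822 reads). The 2D cultures had intervals of 13.4 to 14.8 and 14.1 to 15.3 CPM, which overlapped. With the composition correction, the log2 ratio of spheroid to tumor went from 0.53 to 1.31, over 2-fold higher, and that to the 2D monoculture from 0.17 to 0.65. Of the summed glypican level per kb, Gpc1 made up 98.0% in spheroid culture, 97.5% in 2D monoculture, 95.02% in 2D co-culture and 82.4% in the tumor, where Gpc3 had 6.51%, Gpc6 5.63% and Gpc4 5.43%.

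Perlecan (Hspg2, chr4:137468769-137570630), the large proteoglycan of basement membranes, was even across the cultures. It had 276 CPM in spheroid culture (37524 reads), 271 CPM in 2D co-culture (31007 reads), 249 CPM in 2D monoculture (35450 reads) and 78.4 CPM in tumor (12721 reads). The intervals of the spheroid and the 2D co-culture overlapped, at 273 to 278 and 268 to 274 CPM. Each culture stood well above the tumor, with 2D monoculture at 318% of its level, 2D co-culture at 346% and spheroid culture at 352%. The composition correction ended both calls, with log2 ratios of 0.22 for spheroid to tumor and -0.20 for tumor to 2D monoculture.

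Counted over the members, with 1 CPM added to both levels before the ratio, Hpse, Sdc3 and Sdc4 were over 2-fold higher in spheroid culture than in 2D monoculture, 3 of 10, against 11.2% of the 12728 genes that averaged 1 CPM or more. Hpse is counted here although this ratio chose it, so the count is a description. None was over 2-fold lower, against 17.9% of genes. Each of the other comparisons uses the spheroid or the 2D monoculture library of the ratio that chose Hpse. The counts that hold Hpse there are descriptions too. Hpse, Sdc4 and Gpc4 were over 2-fold higher in 2D co-culture than in 2D monoculture, against a background of 3.79%, and none was lower, against 9.51%. Between spheroid and 2D co-culture, Hpse and Gpc1 were higher in spheroid culture (background 9.54%) and Gpc4 was lower (background 8.46%). All 10 members passed the filter of 1 CPM on average. Gpc3 and Gpc4 passed only through the tumor, so that library had to be high for them against the spheroid and the 2D monoculture.

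In the tumor, Hpse, Gpc3 and Gpc4 were over 2-fold higher than in 2D monoculture, 3 of 10 (background 14.8%), and Sdc1, Gpc1 and Hspg2 were lower, again 3 of 10 (background 18.2%). Between spheroid and tumor, Hpse, Sdc1, Sdc4, Gpc1 and Hspg2 were higher in spheroid culture, 5 of 10 (background 26.8%), and Gpc3 and Gpc4 were lower, 2 of 10 (background 27.6%). With 10 members, 1 gene moves such a share by 10 percentage points. The comparisons share libraries, so their values are set side by side and not counted as separate evidence. The median log2 ratio of the members was 0.26 for spheroid to 2D monoculture, against 0.05 over all genes, 0.16 for tumor to 2D monoculture, against -0.14, and 0.78 for spheroid to tumor, against 0.08. Scaling by total counts moved the log2 ratios of spheroid to tumor by a median of -0.34, which left Sdc1, Gpc1 and Hspg2 over 2-fold higher, and changed the share of higher genes among all genes over 2-fold there from 49.2% to 36.7%. For tumor to 2D monoculture, the median move was 0.23 with total counts and 0.24 with upper quartiles, and the share of higher genes among those called went from 44.8% to 59.9% and 60.5%, and Sdc3 joined the higher and Sdc1 left the lower members. For 2D co-culture to 2D monoculture it went from 28.5% to 39.0% with upper quartiles, a median move of 0.11.

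Base composition moved with several of these ratios. Over 12466 genes, the log2 ratio of spheroid to tumor had a Spearman correlation across genes of 0.525 with the GC content of the longest transcript, and that of spheroid to 2D monoculture one of 0.464. Genes are not independent replicates, and the value describes these libraries. Hspg2, Gpc1 and Sdc3 are rich in G and C, at 60.9%, 59.1% and 58.7%, above 97.2%, 93.6% and 92.6% of genes, whereas Hpse and Sdc4 lie near the middle, at 49.2% and 49.3%. After the composition correction, the log2 ratio between spheroid and 2D monoculture was 3.90 for Hpse and 1.53 for Sdc4, against 3.97 and 1.58 before, but 0.35 for Sdc3, against 1.09. In the comparison of spheroid and tumor, Gpc1 went from 2.32 to 0.55 and Hspg2 from 1.80 to 0.22. Sdc1 went from 1.51 to 0.29, and Sdc3 from 0.29 to -1.64, over 2-fold lower in spheroid culture. Sdc4 was 1.14 before and 1.23 after, and Hpse 1.02 and 0.85. Between tumor and 2D monoculture, the lower members all came within 2-fold, with Sdc1 at -0.37, Gpc1 at -0.58 and Hspg2 at -0.20, while Sdc3 went from 0.80 to 2.08, and the share of higher genes among all genes over 2-fold went from 44.8% to 72.6%. Whether composition caused these ratios was not tested.

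**Figure D3:**
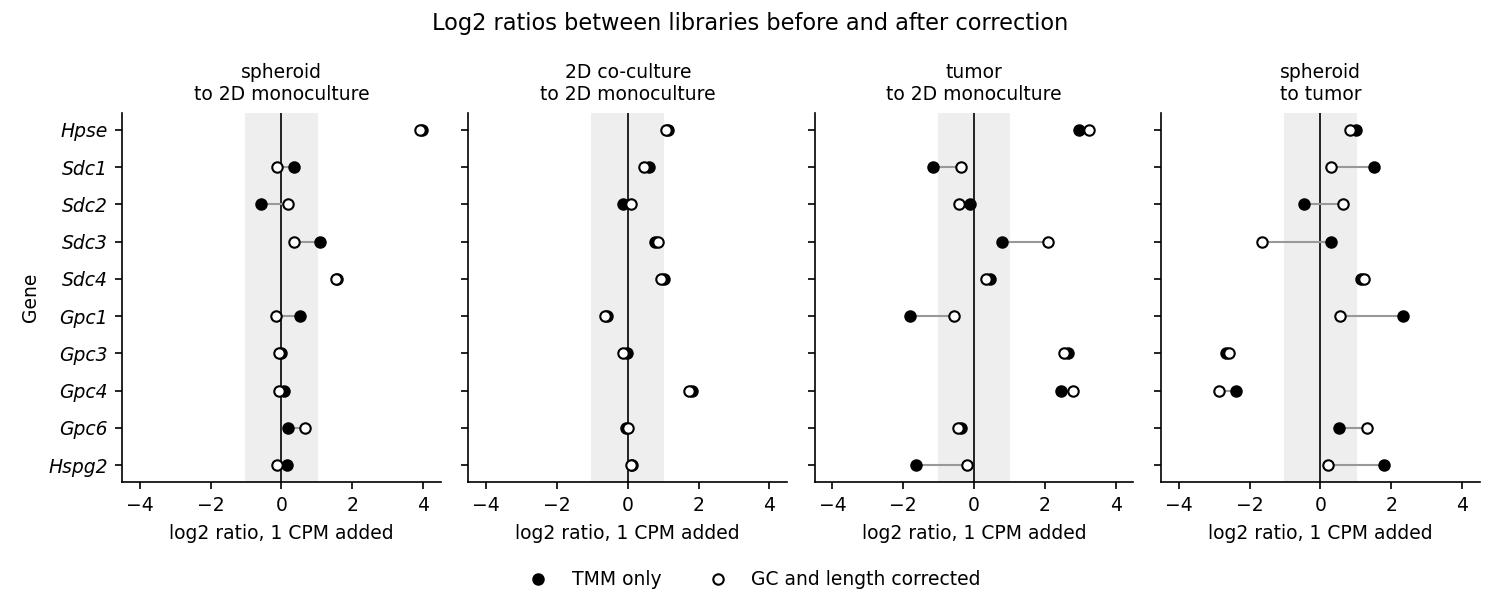
Log2 ratios of the 10 members in 4 comparisons, with 1 CPM added, before (filled) and after (open) the correction for GC content and length, the shaded band marking ratios within 2-fold, and no error bars. In the spheroid, Hpse is at 3.97 before and 3.90 after and Sdc4 at 1.58 and 1.53 against the 2D monoculture, while Gpc1, Hspg2 and Sdc3 shift most in the comparisons with the tumor.

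The enzymes that build the chains were compared by list, over 69 of 92 listed genes of the pathway that averaged 1 CPM or more. Of 12 linker and chain synthesis genes, 3 were over 2-fold higher in spheroid culture than in 2D monoculture and none lower, with a median log2 ratio of 0.25 (with 1 CPM added, here and for the lists that follow). Over all genes, 11.2% were higher and 17.9% lower in that comparison. The highest was Extl1, a glycosyltransferase that adds N-acetylglucosamine, at 81.1 CPM in spheroid culture and 18.7 CPM in 2D monoculture. Ext2, a subunit of the polymerase that extends the chain, had 356 CPM in spheroid culture, 138 CPM in 2D co-culture, 136 CPM in 2D monoculture and 56.1 CPM in tumor. Its partner Ext1 had 41.1, 49.98, 38.5 and 41.8 CPM in the same order. With the composition correction the log2 ratios of spheroid to 2D monoculture were 1.26 for Ext2 and 1.32 for Ext1, so the pair no longer stood apart. The other gene was Xylt2, which starts the linker, with 97.6 CPM in spheroid culture and 44.1 CPM in 2D monoculture (named after its values were seen). Its log2 ratio went from 1.13 to 0.46 with the composition correction, so that Extl1, Ext1 and Ext2 were then the 3 over 2-fold (8.9% of all genes). Against the tumor, 5 of the 12 were higher in spheroid culture (26.8% of all genes) and none lower (27.6%). With the composition correction 3 were higher (16.6% of all genes). Ext2 was highest, at a log2 ratio of 2.65 before that correction.

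Genes that sulfate and epimerize the chains passed 2-fold between spheroid and 2D monoculture about as often as genes at large. Of 11 genes with enough reads, 1 was higher and 2 were lower in spheroid culture than in 2D monoculture, against 11.2% and 17.9% of all genes. In 2D co-culture none was higher or lower than in 2D monoculture, against 3.79% and 9.51% of all genes. Ndst2, an N-deacetylase and N-sulfotransferase, was highest at 52.1 CPM in spheroid culture and 22.9 CPM in 2D monoculture. Glce, the epimerase that turns glucuronic into iduronic acid, was lowest at 20.7 CPM and 53.4 CPM. Ndst1 had 129 CPM in spheroid culture, 172 CPM in 2D co-culture, 135 CPM in 2D monoculture and 42.9 CPM in tumor. After the composition correction, none of the 11 passed 2-fold between spheroid and 2D monoculture, against 8.9% of all genes higher and 11.3% lower. Of the sulfatases that trim the chains outside the cell, Sulf1 had 37.8 CPM in tumor and at most 0.0786 CPM in a culture, and Sulf2 had 116 CPM in 2D monoculture, 81.1 CPM in 2D co-culture, 74.1 CPM in spheroid culture and 49.5 CPM in tumor. Fibroblast and myeloid genes were also high in the tumor, and their part in the level of Sulf1 was not tested.

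Of 8 lysosomal enzymes that finish the breakdown of the chains, 2 were over 2-fold higher in spheroid culture than in 2D monoculture (11.2% of all genes), and 2 were also higher than in 2D co-culture (9.54%), with none lower in either comparison (17.9% and 8.46%). These were Naglu and Idua, an exoglycosidase for N-acetylglucosamine and the iduronidase (Idua named after its values were seen). Naglu had 727 CPM in spheroid culture, 197 CPM in 2D co-culture, 189 CPM in 2D monoculture and 99.4 CPM in tumor. Idua had 77.6 CPM in spheroid culture, 21.7 CPM in 2D co-culture, 20.2 CPM in 2D monoculture and 12.6 CPM in tumor. The other enzymes of the list did not follow, and Gusb, the glucuronidase, had 136.5 CPM in spheroid culture and 237 CPM in 2D monoculture, a log2 ratio of -0.79 that was -1.06, over 2-fold lower, with the composition correction. The median of the 8 was -0.04, against 0.05 over all genes.

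Among other core proteins, agrin (Agrn), a heparan sulfate proteoglycan of basement membranes, had 377.5 CPM in spheroid culture, 224 CPM in 2D co-culture, 172 CPM in 2D monoculture and 62.3 CPM in tumor. Of 10 such genes with enough reads, 2 were higher and 2 lower in spheroid culture than in 2D monoculture (11.2% and 17.9% of all genes), 2 were higher in 2D co-culture (3.79%), and 6 were higher and 1 lower in the tumor (14.8% and 18.2%). Srgn, Dcn and Vcan, among these 6, passed the filter of 1 CPM on average only through the tumor. That library thus had to be above the cultures for them, and the count of 6 is a description. With the composition correction, 4 of the 10 were higher and 1 lower in spheroid culture (8.9% and 11.3% of all genes with the correction). Then 4 were higher in 2D co-culture (4.0%), and 8 were higher and none lower in the tumor (15.6% and 5.9%). Vcan, counted as higher in spheroid culture with the correction (1.02), was lower there before it, with a log2 ratio of -0.14. It had only 23 reads in spheroid culture and 41 in 2D monoculture. Bgn, a small chondroitin or dermatan sulfate proteoglycan of connective tissue, had 174.8 CPM in tumor, 103 CPM in 2D co-culture, 1.63 CPM in spheroid culture and 0.147 CPM in 2D monoculture. Srgn, the granule proteoglycan of blood cells, had 74.7 CPM in tumor and at most 0.114 CPM in a culture, and Col18a1, a basement membrane collagen that bears heparan sulfate, 35.5 CPM in tumor and at most 1.498 CPM in a culture. Gpc2 had 90 reads in the tumor and none in the cultures, and Gpc5 had 21 reads in the tumor and at most 3 in a culture. These genes were high in the library that also held the most myeloid, endothelial and fibroblast RNA, and the part of those cells was not tested.

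**Figure D4:**
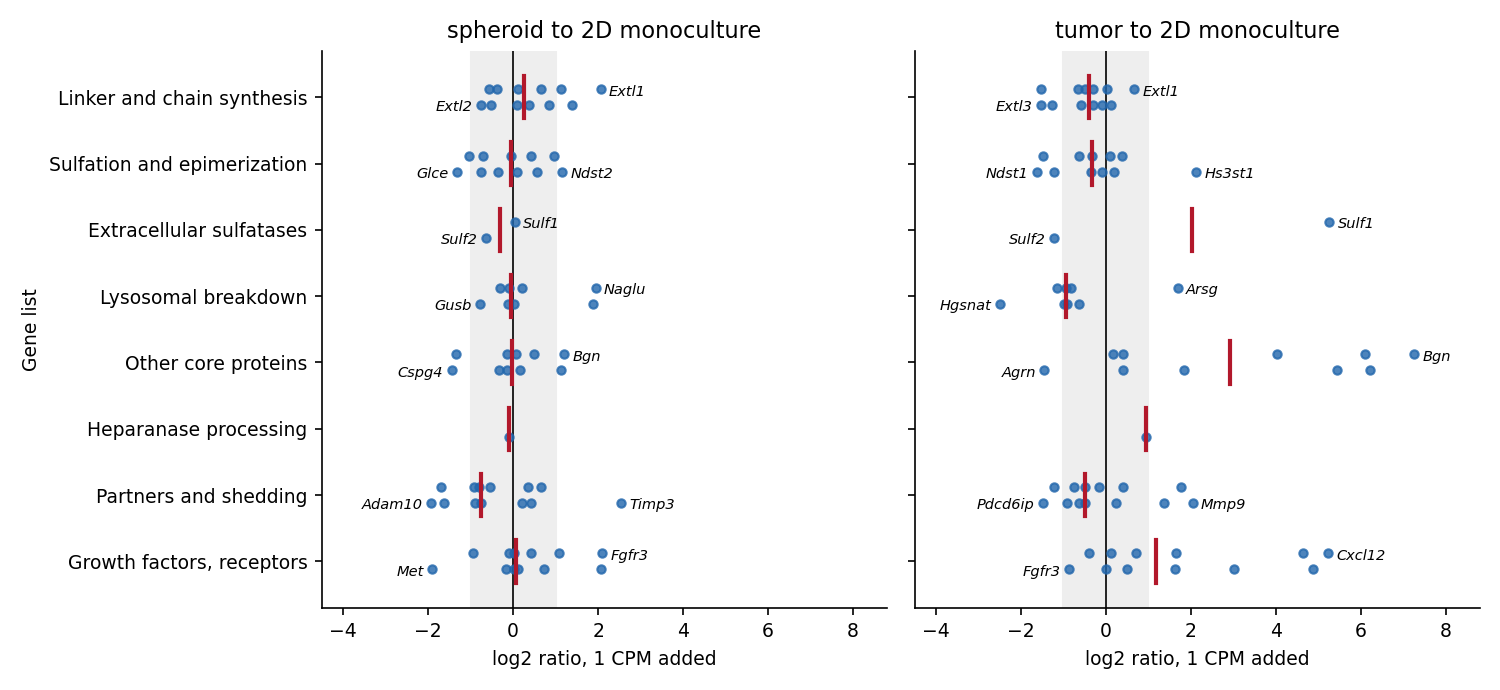
Log2 ratios, with 1 CPM added, of the genes of 8 lists that averaged 1 CPM or more, for spheroid (left) and tumor (right) against 2D monoculture. The lists cover the heparan sulfate pathway and other core proteins, such as Bgn, a chondroitin or dermatan sulfate proteoglycan. Each point is a gene, red bars are list medians, the shaded band marks ratios within 2-fold, the named points are the highest and lowest of each list, and the largest ratios, such as 7.26 for Bgn, are in the tumor.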

How the data were processed

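The authors deposited read counts per gene symbol for 4 libraries, 1 per condition, as whole numbers with no normalization. The submitters' processing notes name Trimmomatic, STAR, featureCounts and the build mm10 (GRCm38). For versions and the strand setting, nothing is given in the sources used here. Per the labels, mRNA was enriched with oligo(dT) beads, made into libraries with the NEBNext Ultra II RNA kit and sequenced from both ends.

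CPM came from TMM factors (edgeR 4.0.16, R 4.3.3). Single-gene log2 ratios have nothing added and exact binomial intervals. Calls (over 2-fold), lists and rankings add 1 CPM. Exact Clopper-Pearson intervals were used for levels. Lengths, GC content and positions came from GENCODE M21. The correction uses 10 classes of GC content by 10 of length. Size factors of DESeq2 1.42.0 were an alternative. Calls and intervals were tested on simulated data with counting error as the only spread, which cannot test variation between cultures or a trend with GC content.

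The members and lists were chosen with earlier results of these data known. Named were the members, the extremes of each list in each comparison, fixed pathway genes, the neighbours of Hpse in rank, the 5 genes nearest to it in pattern and the most abundant markers.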

Additional observations from a re-analysis of the deposited data

How the results depend on the processing

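No paired analysis was possible because no condition was sequenced more than once. Of 22 member ratios over 2-fold in the 5 comparisons, all 22 had the same sign under every alternative, and 22 stayed over 2-fold with DESeq2 size factors, TMM of the libraries compared, 0.1 CPM added or the tumor share removed (the tumor value times the median share of the muscle genes, subtracted from each culture), 20 with upper quartiles, 17 with total counts, 12 with 10 CPM added and 12 with the GC and length correction. For Hpse, spheroid to 2D monoculture on the log2 scale gave 3.99 (total counts), 4.23 (upper quartile), 4.02 (TMM of the libraries compared) and 3.12 (10 CPM added). For members over 2-fold, a fold of 3 left 1 higher in each of spheroid to 2D monoculture, 2D co-culture to 2D monoculture and spheroid to 2D co-culture, and 2 in spheroid to tumor. With 10 CPM added, 0 were higher in the 2D co-culture, 1 in the tumor, and 0 lower in the spheroid than in the 2D co-culture or the tumor. With the correction, 1 was higher for spheroid to 2D co-culture (7.0% of all genes) and 0 lower in the tumor than in the 2D monoculture (5.9%). For spheroid to tumor 2 were then higher (16.6%), where Sdc4 remained, Gpc6 was added, and Hpse, Sdc1, Gpc1 and Hspg2 were lost. Total counts gave 3 there (19.4%). In the pathway lists, 18 of 69 genes were higher in the tumor than in the 2D monoculture (14.8% of all genes), and 10 at a mean of at least 10 CPM, which tests fewer genes. The correction of these lists was an alternative chosen after seeing the data. With it, genes lower in the spheroid than in the 2D monoculture went from 8 to 5 (11.3% of all genes with the correction). Those higher in the 2D co-culture than in the 2D monoculture went from 7 to 11 (4.0%). Those lower went from 13 to 8 for spheroid to 2D co-culture (6.6%) and from 12 to 3 for tumor to 2D monoculture (5.9%). The cause of the other moves was not tested. The Sdc4 share of syndecans was 33.5%, 23.9%, 16.9% and 25.0% (spheroid, 2D co-culture, 2D monoculture, tumor) with longest transcripts and 24.6%, 17.4%, 12.2% and 17.0% without length. Low counts limit the ratios of Gpc3 and Gpc4, with 6 reads or fewer in the spheroid and the 2D monoculture and no read of Gpc3 in the 2D co-culture.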

Other observations

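Growth factors and receptors that bind heparan sulfate were compared in the same way. Of 12 such genes that averaged 1 CPM or more, 3 were over 2-fold higher and 1 lower in spheroid culture than in 2D monoculture, against 11.2% and 17.9% of all genes, with a median log2 ratio of 0.07, and 4 were higher and 1 lower in 2D co-culture, against 3.79% and 9.51%. Ptn, counted as higher in 2D co-culture, passed the filter of 1 CPM on average only through that library. Vegfa, the endothelial growth factor held by heparan sulfate, had 453 CPM in spheroid culture, 167 CPM in 2D co-culture, 107 CPM in 2D monoculture and 177 CPM in tumor. Fgfr3, an FGF receptor, had 24.2 CPM in spheroid culture, 8.47 CPM in 2D co-culture, 4.91 CPM in 2D monoculture and 2.25 CPM in tumor. Fgfr1, in contrast, had 23.8 CPM in 2D co-culture, 25.3 CPM in tumor, 0.404 CPM in spheroid culture and 0.0562 CPM in 2D monoculture, in the order of the fibroblast genes, whose part was not tested. Met, the receptor of hepatocyte growth factor, had 652 CPM in 2D monoculture, 921 CPM in tumor, 172 CPM in spheroid culture and 167 CPM in 2D co-culture. It was the gene counted as lower in spheroid culture. Its log2 ratio to 2D monoculture there went from -1.91 to -0.69 with the correction for GC content and length, which left none lower (11.3% of all genes).

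Among 13 partners and shedding enzymes of syndecans and glypicans, 1 was over 2-fold higher and 3 lower in spheroid culture than in 2D monoculture, against 11.2% and 17.9% of all genes, with a median log2 ratio of -0.75, which was -0.30 with the correction for GC content and length. Timp3, an inhibitor of metalloproteases, had 342 CPM in spheroid culture and 58.3 CPM in 2D monoculture. Adam10, a membrane protease that sheds surface proteins, had 53.8 CPM and 209 CPM. Sdcbp, which encodes syntenin and binds syndecan tails, had 273 CPM in spheroid culture, 416 CPM in 2D co-culture, 479 CPM in 2D monoculture and 1230 CPM in tumor.

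The 5 genes nearest to Hpse in pattern, among 9587 other genes of at least 10 CPM on average and by the distance between log2(CPM + 1) values centred over the 4 libraries, were Cort, Aire, Gsta2, G0s2 and Fxyd1, at distances of 0.203, 0.38, 0.78, 0.887 and 0.903. Cort had 44.2 CPM in spheroid culture, 18.7 CPM in tumor, 4.603 CPM in 2D co-culture and 1.97 CPM in 2D monoculture. Aire, a transcriptional regulator known from the thymus, had 60.0 CPM in spheroid culture, 34.4 CPM in tumor, 6.25 CPM in 2D co-culture and 3.50 CPM in 2D monoculture. The likeness rests on 4 libraries.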
